A study of Mus musculus with 6 samples.

Results

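The genes described here are transcription factor ATF4, the genes it is known to switch on when amino acids run short, and the aminoacyl-tRNA synthetases of the cytosol. They were chosen by name, from a list of 22 response genes plus every gene symbol made of 1 letter followed by "ars", with or without a final 1. A gene entered when a probe set carried its symbol alone, and the probe set with the highest mean stood for the gene. This gave 35 genes of 19935 measured, 20 from the list and 15 synthetases, and all 35 were tested with no filter on low values. Pycr1 and Gdf15 of the list, and the synthetase genes Aars and Dars, were not analysed here because no probe set names them alone.

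Transcripts were profiled on 6 Affymetrix arrays, of which 4 came from male wild-type (WT) mice and 2 from male mice lacking the Y1 receptor of neuropeptide Y (Y1KO), to ask what loss of the receptor changes in osteoblastic cells. Mice of both genotypes carried a green fluorescent reporter driven by 3.6 kb of the rat type I collagen alpha 1 promoter, so the sort selected cells in which this promoter was active. Marrow stromal cells of the femora and tibias were grown for 7 days in control medium, and the fluorescent cells were sorted for total RNA. The sources used here give no age, strain or kind of Y1 deletion. They also leave unsaid whether separate mice or separate cultures stand behind the arrays, so the p-values reflect only array-to-array spread, part of which may be technical. Values are log2 expression, differences are Y1KO minus WT on that scale, and a gene is said to have risen or fallen when its limma adjusted p, over all 19935 genes, was under 0.05. In RNA from sorted pools, fewer cells of a type and less RNA per cell cannot be told apart.

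ATF4 is the main effector of the integrated stress response. Kinases that sense amino acid shortage (GCN2), misfolded protein in the endoplasmic reticulum (PERK), viral RNA (PKR) or lack of haem (HRI) phosphorylate the initiation factor eIF2, which slows translation in general while the Atf4 messenger is translated more. ATF4 pairs with C/EBP proteins on a composite DNA element and switches on amino acid transporters, enzymes that make serine, glycine, asparagine and proline, and many of the enzymes that charge tRNAs. In osteoblasts it is known as a factor of late differentiation that supports amino acid supply for collagen synthesis. Because ATF4 is set largely at translation, the level of its messenger says little about the protein.

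In Y1KO cells 13 of the 35 genes rose and 0 fell. Over all genes 6.1% rose, 6.64% fell, and 12.7% passed in either direction. The genes that rose were the biosynthetic enzymes Mthfd2, Asns, Aldh18a1 and Psat1, the stress genes Nupr1, Sesn2 and Eif4ebp1, the lipoprotein receptor gene Vldlr, and the synthetases Gars, Tars, Mars1, Sars and Iars. The fold changes of these 13 ran from 1.27 for Sesn2 and Iars to 2.79 for Vldlr. Of the 35 differences 34 were above 0, with a median of 0.31, against 51.6% above 0 and a median of 0.01 over all genes. Both Y1KO arrays lay above every WT array for 25 of the 35, where 17.5% of all genes did so, and below every WT array for 1, where 17.3% did. At an unadjusted p under 0.05, 22 of the 35 were higher and 0 lower. Of all 19935 genes, 2342 were higher and 2495 lower at that cut-off.

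The calls rested on both Y1KO arrays, while the direction did not change. Of the 13 genes, 2 kept the call without Y1KO replicate 1 (Aldh18a1 and Gars) and 0 without Y1KO replicate 2, and 18 and 15 of the 35 were then higher at an unadjusted p under 0.05. A single Y1KO array has no spread of its own and was assumed to vary like the WT arrays. Without WT replicate 1, 8 of the 13 kept the call, and without moderation of the variance 2 did, Sesn2 and Aldh18a1. All 13 differences stayed above 0 in each of the 13 alternatives run.

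The composite element bound by ATF4 with a C/EBP partner is usually written TGATGNAA, and this string was searched on both strands of the RefSeq promoter windows (GRCm38.p6), which run from 250 bases before to 50 bases after each listed start. Of the 35 genes 27 had a window, and 10 of these 27 held the string, against 4.51% of the 27025 genes with a window. The response genes were chosen as genes ATF4 is known to switch on. A higher share could thus come from the choice alone, and this comparison was not a test. Among the 13 genes that rose, 12 had a window and 6 of the 12 held it. Among the others it was in 4 of 15, those of Chac1, Trib3, Yars and Fgf21. The 6 sequences are given because they belong to genes that rose, and each is a stretch of 120 bases, 5′ to 3′ along the strand of the gene, with the 8-base match in capitals.
Gars: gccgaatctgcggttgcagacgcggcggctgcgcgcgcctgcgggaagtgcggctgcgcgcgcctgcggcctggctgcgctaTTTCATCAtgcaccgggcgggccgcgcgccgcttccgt
Nupr1: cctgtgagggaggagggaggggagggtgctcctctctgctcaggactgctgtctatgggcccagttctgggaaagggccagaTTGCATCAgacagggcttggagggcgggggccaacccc
Tars: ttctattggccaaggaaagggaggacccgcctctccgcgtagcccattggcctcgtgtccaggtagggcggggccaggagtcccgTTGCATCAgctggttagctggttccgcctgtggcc
Asns: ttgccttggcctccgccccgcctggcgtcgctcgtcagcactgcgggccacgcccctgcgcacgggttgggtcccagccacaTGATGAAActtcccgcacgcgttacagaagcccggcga
Iars: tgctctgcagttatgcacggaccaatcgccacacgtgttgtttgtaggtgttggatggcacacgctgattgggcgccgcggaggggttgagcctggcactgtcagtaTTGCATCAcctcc
Vldlr: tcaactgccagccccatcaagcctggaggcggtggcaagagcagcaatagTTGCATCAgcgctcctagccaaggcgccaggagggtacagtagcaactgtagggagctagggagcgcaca
Counted from the start as base 1, with -1 just before it, the Gars stretch is chr6:55037889-55038008 on the plus strand, with the match starting at -30. The Nupr1 stretch is chr7:126625543-126625662 on the minus strand, with the match starting at -110. The Tars stretch is chr15:11399639-11399758 on the minus strand, with the match starting at -15. The Asns stretch is chr6:7693195-7693314 on the minus strand, with the match starting at -23. The Iars stretch is chr13:49682030-49682149 on the plus strand, with the match starting at 8. The Vldlr stretch is chr19:27216770-27216889 on the plus strand, with the match starting at -200. The Asns match reads along the strand of the gene and the others lie on the opposite strand, and the Vldlr match is in the window of only one of its listed starts. A match is a description of these letters and not evidence of binding, and its absence from the other windows says nothing about the factor.

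**Figure D1:**
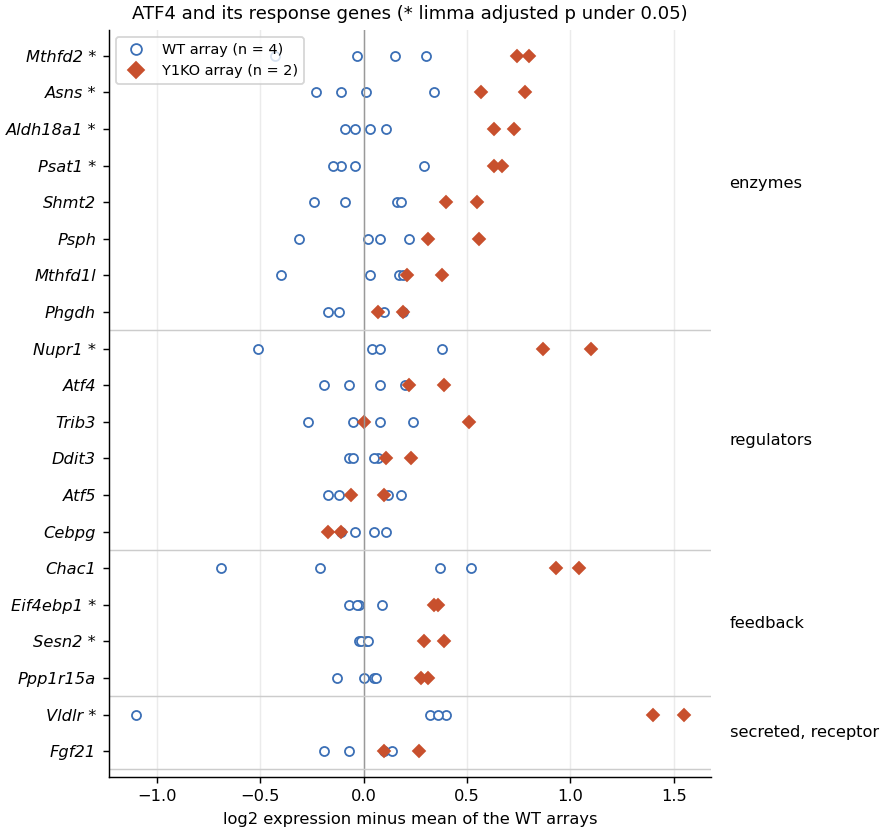
Log2 expression of each gene minus the mean of its 4 WT arrays (x axis), for ATF4 and its response genes grouped by role. Open circles are the 4 WT arrays, diamonds the 2 Y1KO arrays, and an asterisk marks a limma adjusted p under 0.05. The diamonds lie right of all circles in 15 of the 20 genes, and at or beyond their left edge for Cebpg.

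The enzymes that make amino acids and one-carbon units rose in part, where 6.1% of all genes rose and 6.64% fell. Of the 8 measured, 4 rose and 0 fell, with a median of 0.57 (1 and 0 rose without Y1KO replicate 1 and 2). Asns, which makes asparagine from aspartate and glutamine, read 10.03, 10.15, 10.27 and 10.6 on the WT arrays, given in replicate order here and throughout, and 10.83 and 11.04 on those of Y1KO. The groups did not overlap, although WT replicate 4 lay closer to Y1KO replicate 1 than to any other WT array. It rose by 0.68, or 1.6-fold (SE 0.16, limma adjusted p = 0.0228, 95% interval 0.32 to 1.03). Aldh18a1, the enzyme of the first committed steps from glutamate to proline, an amino acid abundant in collagen, read 9.52, 9.57, 9.64 and 9.72 in WT and 10.24 and 10.34 in Y1KO. All WT arrays lay within 0.2 of each other, and the rise of 0.68 (SE 0.09, limma adjusted p = 0.00287) had the smallest adjusted p of the 35 genes.

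Serine synthesis runs through 3 enzymes, of which 1 passed the test. Phgdh, which takes the first step from glycolysis, averaged 8.08 in WT (n = 4, SD 0.17) against 8.21 in Y1KO (n = 2, SD 0.08), and its groups overlapped (difference 0.13, 95% interval -0.15 to 0.40). Psat1, the transaminase of the second step, read 9.57, 9.64, 9.53 and 9.97 in WT and 10.35 and 10.31 in Y1KO. Here both Y1KO arrays lay above every WT array, and the rise was 0.66 (SE 0.13, limma adjusted p = 0.012), or 1.58-fold. Psph, the phosphatase of the last step, was 0.43 higher without passing the test (limma adjusted p = 0.104), with Y1KO arrays at 7.18 and 7.43 above WT arrays at 6.56 to 7.09. Differences between these enzymes were not tested.

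Serine feeds the mitochondrial folate cycle, where Shmt2 splits it into glycine and a one-carbon unit, Mthfd2 oxidises that unit and Mthfd1l releases it as formate. Mthfd2 read 8.63, 8.23, 8.81 and 8.96 in WT and 9.4 and 9.46 in Y1KO. WT replicate 2 was the lowest and the Y1KO arrays were nearly equal. The rise was 0.77 (SE 0.18, limma adjusted p = 0.025), or 1.7-fold, and it lost the call without WT replicate 1 as well as without either Y1KO array. Shmt2 was 0.47 higher with groups that did not overlap and a limma adjusted p of 0.0529, just outside the threshold, and Mthfd1l was 0.30 higher (limma adjusted p = 0.327). Shmt2 passed without WT replicate 4, with median centring, with the filter at the 40th percentile and with trend and robust options.

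Of the 6 transcription factors and modulators 1 rose, 0 fell, and Atf4 itself did not pass the test. As 6.1% of all genes rose, 1 of 6 is no result about this group. Atf4 read 8.98, 8.86, 9.25 and 9.13 in WT and 9.27 and 9.44 in Y1KO. Y1KO replicate 1 lay just above WT replicate 3, and Atf4 was 0.30 higher (SE 0.12, limma adjusted p = 0.171, 95% interval 0.02 to 0.58). Ddit3, which encodes the factor CHOP that promotes cell death under lasting stress, read 6.35, 6.49, 6.37 and 6.47 in WT and 6.53 and 6.65 in Y1KO, a difference of 0.17 (95% interval -0.03 to 0.38, limma adjusted p = 0.299). Both Y1KO arrays of Ddit3 lay above every WT array, and Y1KO replicate 1, at 6.53, was close to WT replicate 2, at 6.49. Atf5, a close relative that is also controlled at translation, averaged 7.83 in WT (n = 4, SD 0.17) against 7.85 in Y1KO (n = 2, SD 0.12), and its difference of 0.02 turned negative when WT replicate 1, WT replicate 2 or Y1KO replicate 2 was left out.

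Trib3, a pseudokinase that restrains ATF4 and CHOP, was the member on which the Y1KO arrays differed most. It read 5.65, 5.78, 5.43 and 5.94 in WT and 5.7 and 6.21 in Y1KO, so Y1KO replicate 1 lay among the WT arrays (difference 0.26, 95% interval -0.13 to 0.65, limma adjusted p = 0.429). Cebpg, a partner with which ATF4 forms dimers, was the member with a negative difference, -0.14 (limma adjusted p = 0.427), and its Y1KO arrays, 7.45 and 7.51, lay below or level with the lowest WT array, 7.51. Nupr1, a small stress-induced nuclear protein, was the regulator that rose. Its WT arrays read 10.07, 9.52, 10.41 and 10.11 and its Y1KO arrays 10.9 and 11.13, and the rise was 0.98 (SE 0.21, limma adjusted p = 0.0175), or 1.98-fold. The WT arrays spread over 0.89, with replicate 2 lowest, and the groups did not overlap. The call was lost without either Y1KO array.

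Genes that feed back on translation, growth signalling and redox state were higher in each case, and 2 of the 4 rose (0 without WT replicate 1 or either Y1KO array). The share of all genes that rose was 6.1%. Sesn2, a leucine sensor that restrains the growth kinase mTORC1, read 7.29, 7.32, 7.3 and 7.33 in WT and 7.6 and 7.7 in Y1KO. The 4 WT arrays spanned only 0.04, and the rise was 0.34 (SE 0.08, limma adjusted p = 0.0296). Eif4ebp1, whose protein 4E-BP1 holds the cap-binding factor eIF4E inactive, read 9.04, 9.09, 9.08 and 9.2 in WT and 9.45 and 9.47 in Y1KO and rose by 0.35 (SE 0.09, limma adjusted p = 0.0319). Ppp1r15a, which encodes GADD34, the subunit that directs a phosphatase to eIF2 and so ends the response, was 0.30 higher with groups apart and a limma adjusted p of 0.07. Chac1, an enzyme that breaks down glutathione, read 7.25, 6.77, 7.83 and 7.98 in WT and 8.5 and 8.39 in Y1KO. Its difference of 0.98 equalled that of Nupr1, but its WT arrays spread over 1.21 (SE 0.30, limma adjusted p = 0.0659). It passed without WT replicate 2, without WT replicate 4 and with the replicate block. That block takes the difference from replicates 1 and 2 of each genotype only. With that block Sesn2 and Eif4ebp1 lost their calls (limma adjusted p = 0.123 and 0.0855). Sesn2 also lost its call without WT replicate 4 (0.0541), and Eif4ebp1 without WT replicate 2 (0.0566), with quantile normalization (0.0613) and without moderation.

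Vldlr, a receptor that takes up triglyceride-rich lipoproteins, had the highest difference of the 35. Its WT arrays read 9.58, 8.08, 9.5 and 9.54 and its Y1KO arrays 10.58 and 10.73. WT replicate 2 lay far below the other WT arrays, which lay between 9.5 and 9.58. The rise was 1.48 (SE 0.38, 95% interval 0.61 to 2.35, limma adjusted p = 0.0362), or 2.79-fold. Without WT replicate 2 it was 1.12 with a limma adjusted p of 0.00039, and without WT replicate 3 or 4 the adjusted p was 0.0504 and 0.0513. Leaving out either Y1KO array also ended the call, as did the model without moderation and the one with trend and robust options. Fgf21, a hormone gene, lay at percentile 30.7 of all genes in WT, where an array can understate a difference, and differed by 0.19 (limma adjusted p = 0.398) with overlapping groups.

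**Figure D2:**
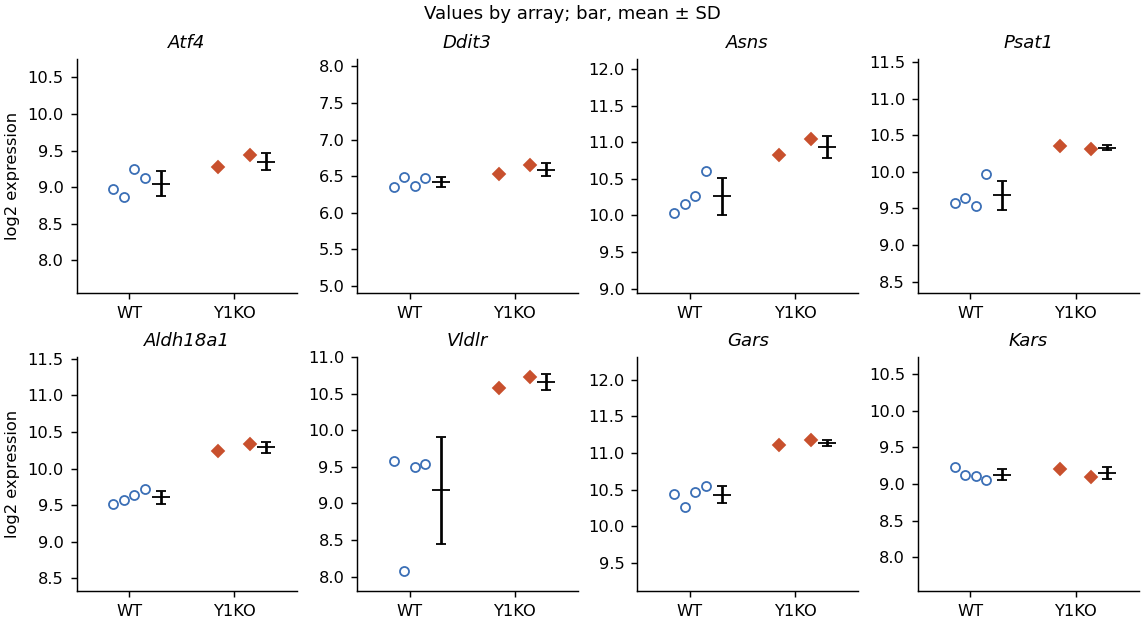
Log2 expression (y axis, the same span in each panel) of 8 of the genes on the 4 WT arrays (open circles) and the 2 Y1KO arrays (diamonds), with the mean ± SD of each group beside them. Asns, Psat1, Aldh18a1, Vldlr and Gars rose, Atf4 and Ddit3 did not pass the test, and Kars overlapped between groups; the low WT point for Vldlr, at 8.08, is replicate 2.

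The synthetases join each amino acid to its tRNA. Of the 15, 5 rose and 0 fell, against 6.1% and 6.64% of all genes, with a median of 0.29. Gars, which charges glycine tRNA, showed the highest difference. It read 10.44, 10.26, 10.46 and 10.55 in WT and 11.11 and 11.17 in Y1KO, and rose by 0.71 (SE 0.10, 95% interval 0.48 to 0.94, limma adjusted p = 0.00327), or 1.63-fold. Both Y1KO arrays lay well clear of the highest WT array. Tars, for threonine, read 9.08, 8.91, 9.05 and 9.19 in WT and 9.5 on both Y1KO arrays and rose by 0.44 (SE 0.10, limma adjusted p = 0.0204). Mars1, for methionine, read 9.25, 9.13, 9 and 9.38 in WT and 9.65 and 9.61 in Y1KO and rose by 0.44 (limma adjusted p = 0.0377). With both Y1KO arrays kept, Mars1 lost the call without WT replicate 1, 2 or 3. It also lost it with quantile normalization, with the replicate block and without moderation.

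Sars, for serine, read 9.95, 9.82, 9.84 and 10 in WT and 10.29 and 10.33 in Y1KO, a rise of 0.41 (SE 0.09, limma adjusted p = 0.0199). Iars, for isoleucine, read 9.79, 9.74, 9.7 and 9.85 in WT and 10.12 on both Y1KO arrays, a rise of 0.35 (SE 0.09, limma adjusted p = 0.0313). It was the only one of the 35 genes with a further probe set, which gave a difference of 0.36. With both Y1KO arrays kept, Iars lost the call without WT replicate 1 or 2 and with quantile normalization. Iars and Sars also lost it with the replicate block and without moderation. The 5 calls became 3 when WT replicate 1 or WT replicate 2 was left out, 1 when Y1KO replicate 1 was, 0 when Y1KO replicate 2 was, 3 with quantile normalization, 2 with the replicate block and 0 without moderation. At an unadjusted p under 0.05, 9 of the 15 were higher, and 6 and 5 with Y1KO replicate 1 and 2 left out.

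Not all synthetases are usually counted among ATF4 targets, so the 15 were divided by that listing. Of the 11 measured that are commonly listed as targets, 5 rose (45.5%) and the median was 0.32. Of the 4 others, Qars, Hars, Rars and Kars, 0 rose and the median was 0.06. Over all genes 6.1% rose, so 0 of 4 is near the background and is no result about those 4. At an unadjusted p under 0.05 these counts were 9 and 0, where 2342 of all 19935 genes were higher. In the first group both Y1KO arrays exceeded all WT arrays for 10 of 11, among them Cars, Nars, Lars, Yars and Vars, whose differences of 0.23 to 0.32 did not pass. Wars, for tryptophan, was the exception, averaging 8.71 in WT (n = 4, SD 0.08) against 8.73 in Y1KO (n = 2, SD 0.07). All 4 of the second group overlapped between genotypes, while 17.5% of all genes had both Y1KO arrays above every WT array. Kars, for lysine, had the smallest difference of the 15. It read 9.23, 9.13, 9.11 and 9.05 in WT and 9.2 and 9.09 in Y1KO, a difference of 0.02 (95% interval -0.19 to 0.22) whose sign turned with quantile normalization. The difference between the groups of synthetases was not tested. The grouping came from general knowledge of the pathway and was made with earlier results of these data known.

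The synthetases also divide by the fold of their catalytic domain and by whether they sit in a large complex. Of 9 class I enzymes 2 rose with a median of 0.24, and of 6 class II enzymes 3 rose with a median of 0.36. Of the 6 among the 15 that belong to the multi-synthetase complex, Iars and Mars1 rose, and the median was 0.20. The share of all genes that rose was 6.1%, and differences between these groups were not tested. With quantile normalization, with the replicate block and without moderation, 0 rose in class I and in the complex. In class II 3, 2 and 0 rose under the same settings. The complex also holds Eprs, which the naming rule leaves out and which rose too, and the scaffold proteins of Aimp1, Aimp2 and Eef1e1, which did not pass the test. Their counts fell to 0 without either Y1KO array for class I and the complex, and to 1 and 0 without Y1KO replicate 1 and 2 for class II; class I and the complex also had 0 without WT replicate 1 or 2 and 1 without WT replicate 3.

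**Figure D3:**
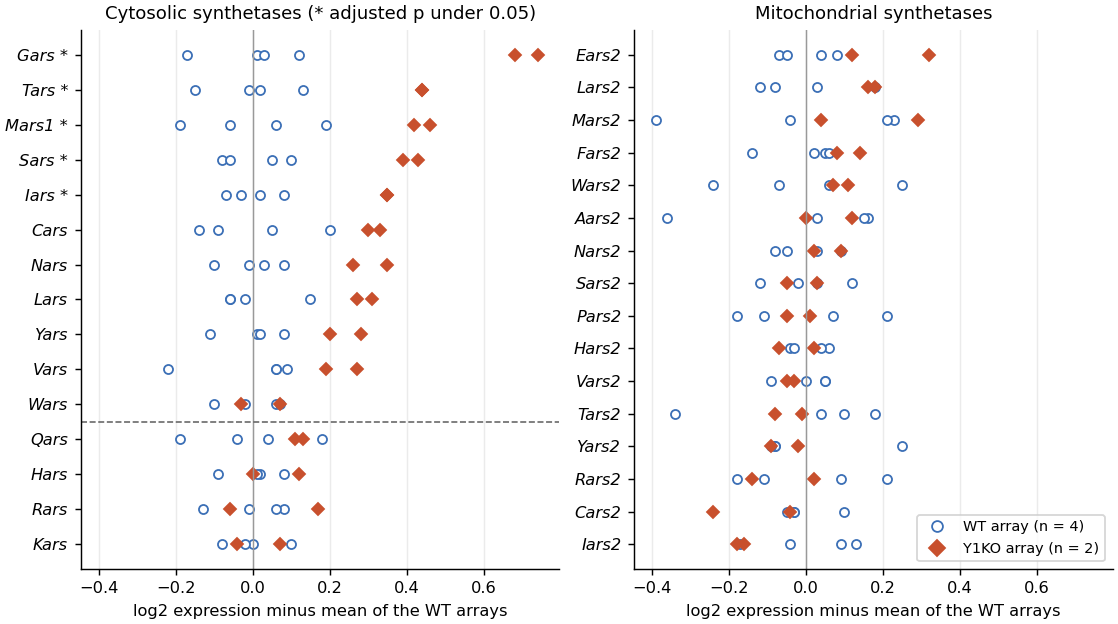
Log2 expression of each synthetase gene minus the mean of its 4 WT arrays (x axis), cytosolic on the left (Gars and Kars also serve mitochondria) and mitochondrial on the right, with open circles for WT arrays and diamonds for Y1KO arrays. Genes above the dashed line are commonly listed as ATF4 targets, and an asterisk marks a limma adjusted p under 0.05. The diamonds of 10 of the 11 genes above the line clear all circles. None of the 16 mitochondrial genes carries an asterisk, where 12.7% of all genes passed the test.

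Most mitochondrial synthetases are encoded by separate nuclear genes, while Gars and Kars each encode both the cytosolic and the mitochondrial enzyme. Of the 16 measured, 0 rose and 0 fell by limma, with a median of -0.01 and differences from -0.17 to 0.22. Over all genes 6.1% rose and 6.64% fell, so these counts are near the background and are no result about this list. Of the 16, 1 was past an unadjusted p under 0.05, Ears2 at 0.22. The ordinary model without moderation also called 0. Among the other cytosolic subunits and partners 2 of 7 rose. Eprs, a fused enzyme that charges both glutamate and proline, read 10.04, 9.95, 10.08 and 10.09 in WT and 10.58 and 10.63 in Y1KO, a rise of 0.57 (SE 0.09, limma adjusted p = 0.00414). Xpot, which carries tRNA out of the nucleus, read 9.61, 9.3, 9.17 and 9.64 in WT and 10.15 and 10.17 in Y1KO and rose by 0.73 (SE 0.14, limma adjusted p = 0.0114). For both genes the Y1KO arrays lay above every WT array. Farsb, a subunit of the phenylalanine enzyme, was not past the test at -0.13. In the ordinary model without moderation, Xpot was not called (adjusted p = 0.122) and Eprs was (0.0408). Xpot lost the call without either Y1KO array and Eprs without Y1KO replicate 2.

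Upstream of ATF4, 1 of the 4 kinases that phosphorylate eIF2 rose. Eif2ak3, which encodes PERK, read 8.03, 7.79, 7.84 and 8.01 in WT and 8.76 and 8.84 in Y1KO. The groups lay well apart and the rise was 0.89 (SE 0.10, limma adjusted p = 0.00144), a call kept in each of the 13 alternatives. Eif2ak4, which encodes the amino acid sensor GCN2, was at -0.39 (SE 0.11, limma adjusted p = 0.0525), and Eif2ak2, which encodes the RNA-sensing PKR and is induced by interferon, at -0.48 (SE 0.14, limma adjusted p = 0.0566). For both, the Y1KO arrays lay below every WT array. Both passed with trend and robust options and with the filter at the 40th percentile. Of the 14 kinases, subunits of eIF2 and of its exchange factor, and related regulators measured, Eif2ak3 was the 1 called (7.14%), and the median was 0.16. With 6.1% of all genes higher and 12.7% called, that count is near the background and is no result about this list.

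Other genes commonly listed as ATF4 targets, listed by name, rose in part as well. Of 25 measured, 11 rose (44%, against 40% of the 20 response genes and 6.1% of all genes). The number that fell was 0, where 6.64% of all genes did, and the median was 0.36. At an unadjusted p under 0.05, 2 of the 25 were lower, as were 2495 of all 19935 genes. Atf3, a stress-induced transcription factor, rose by 1.82 (SE 0.18, limma adjusted p = 0.000909). Stc2, a secreted stanniocalcin, rose by 1.20, and Gpt2, the mitochondrial alanine transaminase, rose by 0.65. Besides these 3, the calls were the amino acid transporter genes Slc7a11, Slc7a5, Slc7a1, Slc38a2, Slc3a2 and Slc6a9, the cysteine-making enzyme Cth and the autophagy receptor Sqstm1. Leaving out Y1KO replicate 1 or Y1KO replicate 2 gave 2 calls each, leaving out WT replicate 1 gave 7, and the model without moderation gave 0.

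Among 15 measured enzymes and sestrins that neighbour the members in the same pathways, but are not usually counted as ATF4 targets, 0 rose and 1 fell, with a median of -0.11. Over all genes 6.1% rose and 6.64% fell, so counts this small are near the background and are no result about this list. The cytosolic counterparts of Shmt2 and Mthfd2, Shmt1 and Mthfd1, both stood at -0.27 with limma adjusted p values of 0.291 and 0.288. Tyms, the thymidylate synthase that uses a folate unit for DNA, fell by 0.67 (SE 0.12, limma adjusted p = 0.00735). In the ordinary model without moderation Tyms was not called (adjusted p = 0.0871). Sesn1, a relative of Sesn2, was 0.38 higher (limma adjusted p = 0.0789) and Glul, which makes glutamine, was at -0.28 (limma adjusted p = 0.206). Tyms lost its call without either Y1KO array, and with quantile normalization 1 gene of the list rose.

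Chaperones, degradation genes and regulators of the ATF6 and XBP1 arms of the unfolded protein response also rose in part. Of 20 measured, 11 rose and 0 fell, against 6.1% and 6.64% of all genes, with a median of 0.36. Syvn1, a ubiquitin ligase of the endoplasmic reticulum, rose by 0.72, Edem1, which marks misfolded glycoproteins, by 0.67 and Herpud1 by 0.53 (limma adjusted p = 0.00188, 0.00382 and 0.00659). The count was 2 without Y1KO replicate 1, 1 without Y1KO replicate 2, 5 with the replicate block and 1 without moderation. Of 10 partners and targets of ATF4 in osteoblasts 1 rose (10%) and 0 fell, with a median of 0.06. With 6.1% of all genes higher, that count is near the background and is no result about this list. The gene that rose was Fbxw7, which selects proteins for degradation, by 0.52 (limma adjusted p = 0.0169). Rps6ka3, the kinase RSK2 that phosphorylates ATF4, was 0.33 higher and Creb1, a cAMP-responsive factor, was at -0.26, and neither passed (limma adjusted p = 0.0756 and 0.106). Fbxw7 lost its call without either Y1KO array, with the replicate block (limma adjusted p = 0.0601) and without moderation (0.109).

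**Figure D4:**
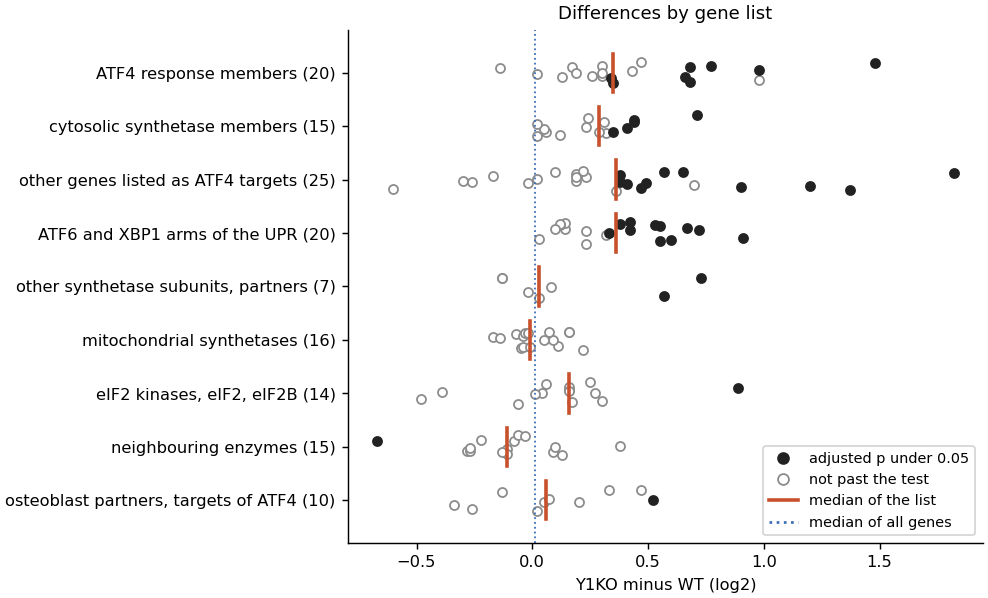
Difference Y1KO minus WT on the log2 scale (x axis) for each gene of the 2 sets described and of 7 other lists, with the number of genes in parentheses. Filled points have a limma adjusted p under 0.05, short bars are list medians, and the dotted line is the median of all genes at 0.01. The medians of the response genes, the synthetases, the other ATF4 targets and the unfolded protein response lie between 0.29 and 0.36, and those of the mitochondrial synthetases and the neighbouring enzymes at -0.01 and -0.11.

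The arrays were not equal within a genotype. WT replicate 4 held the highest WT value for 22 of the 35 genes, or 62.9%, against 27.6% of all genes, and the median deviation of the 35 genes from their WT mean was 0.11 on that array. On the other WT arrays it lay between -0.05 and 0.01. In Y1KO replicates 1 and 2 it was 0.30 and 0.36, above WT replicate 4. WT replicate 3 held the lowest WT value for 10 of the 15 synthetases and for 3 of the 20 response genes. Over all genes it held the lowest value for 35.6%.

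Facts of the whole data set bear on these comparisons. The array medians lay between 5.3 and 5.37, and the arrays correlated at 0.9911 to 0.9958 within WT, 0.9961 between the Y1KO arrays and 0.9762 to 0.9875 across genotypes, over genes, which are not independent replicates. The 5 measured osteoblast markers were Col1a1, Col1a2, Alpl, Sp7 and Ibsp. They averaged 12 to 12.33 on the WT arrays and 12.56 and 12.52 on the Y1KO arrays. Their differences ran from 0.18 to 0.47. Both Y1KO arrays lay above every WT array for 5 of 5, where 17.5% of all genes did so. Of the 5, 0 passed the test, where 12.7% of all genes did. At an unadjusted p under 0.05, 3 of the 5 were higher, as were 2342 of all 19935 genes. Of 14 macrophage markers 9 rose, with list means of 5.21 to 5.4 in WT and 5.65 and 6.07 in Y1KO, and 0 rose without Y1KO replicate 2 and 3 without WT replicate 4. Of 12 smooth muscle and pericyte markers 9 fell and Cspg4 rose (means 8.4 to 8.67 in WT, 7.75 and 7.63 in Y1KO; 5 and 4 fell without Y1KO replicate 1 and 2), and of 6 adipocyte markers 4 fell (means 6.93 to 7.54 in WT, 5.78 and 5.8 in Y1KO). For comparison, 6.1% of all genes rose and 6.64% fell. No marker is at 0 on this log scale. From Y1KO replicate 1 to replicate 2 the macrophage markers differed by a median of 0.41, the 20 response genes by 0.14 and the 15 synthetases by -0.03. What part these cells have in the differences was not tested.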

How the data were processed

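The authors deposited log2 expression values for 28815 probe sets on 6 arrays, and RMA and limma are named, without versions, in the submitters' processing notes. The array medians were already nearly equal, and no further normalization was applied. No source used here names a genome build for the array values, and GRCm38.p6 applies to the promoter windows only. Arrays give no read depth; their number limits the precision. Probe sets were named from the public platform annotation, which can be old: 21780 had 1 gene symbol, 1605 had several, 5430 had none, and 998 genes had more than 1 probe set. Y1KO was compared with WT by limma 3.58.1 (lmFit and eBayes) in R 4.3.3 with genotype as the only term, two-sided, with Benjamini-Hochberg adjustment over 19935 genes. The fit was tested on simulated data. Alternatives were quantile normalization, median centring, a filter at the 40th percentile, the mean of probe sets, trend and robust options, no moderation, the replicate block and leaving out each array. In the replicate block, WT arrays without a same-numbered Y1KO array do not count in the difference. Values on every array are given for members that passed, for Atf4, Ddit3, Asns, Trib3 and Chac1, and for the synthetases of highest and lowest difference. From each other list the 3 genes of smallest p and any call against the majority are named, and genes named beyond that were chosen after their values were seen. The members and lists were chosen with earlier results of these data known.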

Additional observations from a re-analysis of the deposited data

Results flagged for a closer look

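Among the 35 genes, 2 had a WT array far from the other 3, by the gap to its nearest neighbour relative to the range of the 4 arrays, a measure that chance passes in about 1 of 20 groups. Vldlr read 8.08 in WT replicate 2, where the nearest WT array read 9.5, a gap of 0.949 of the range. Vars, the valine synthetase gene, read 8.3 in WT replicate 3, where the nearest read 8.58, a gap of 0.901 of the range.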

How the results depend on the processing

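All 13 members that rose kept a positive difference in each of the 13 alternatives, and their calls depended on the number of Y1KO arrays and on the shared variance. Leaving out 1 array at a time, the response genes called higher numbered 0 to 8, the synthetases called higher 0 to 5, all genes called higher 152 to 1172 and all genes called lower 335 to 1290, with both Y1KO arrays deciding the low ends. Without moderation these counts were 2, 0, 140 and 204. The synthetases called higher numbered 3 with quantile normalization and 2 with the replicate block. The sign turned only for members near 0: Kars at -0.003 with quantile normalization, -0.03 with the replicate block and -0.04 to 0.07 with 1 array left out, Rars at -0.02 and Wars at -0.04 with the replicate block, and, with 1 array left out, Rars at -0.06 to 0.17, Wars at -0.03 to 0.07, Hars at -0.0034 to 0.12 and Atf5 at -0.06 to 0.1. The cause of these changes was not tested. Same-numbered WT and Y1KO arrays shared no clear deviation (correlations over genes of 0.013 for number 1 and -0.204 for number 2), so the numbers were not taken as pairs. With the block, 8 of the 13 calls held and Chac1 and Psph passed. WT arrays without a same-numbered Y1KO array do not count in that difference, which thus rests on numbers 1 and 2 alone. The change in calls therefore mixes the block with the loss of those WT arrays.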
